A study of Danio rerio with 16 samples.

Results

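The genes of the proteasome were examined in whole zebrafish larvae of the wild-type WIK line after 6 h in 1.6 µM triptolide (TP), a plant diterpenoid that inhibits the TFIIH subunit XPB and so blocks transcription by RNA polymerase II. The TP group (n = 8) was set against larvae in vehicle, which the study's methods give as DMSO (control, n = 8). All larvae were 5 days old, carried no transgene, and were pooled by 30 from a dish, so each library mixes the RNA of all tissues. Members were taken by symbol, as every gene named psma to psmg followed by a number, and 58 of the 31812 genes in the table fitted. They comprise 9 alpha (psma) and 13 beta (psmb) genes, 8 psmc, 18 psmd, 5 psme, 1 psmf and 4 psmg genes, with 109 of 57264 transcripts. One of them, psmc3ip, is named for binding a proteasome protein and is known as a factor of meiotic recombination, not a subunit. The entries "PSMD2 (1 to many)" and "PSMD4 (1 to many)" are further copies or fragments of subunit genes already in the list, and counts may be split among them. A further 2 genes carry a fitting current symbol but another deposited name, and were kept outside the counts.

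The proteasome is the large protease that degrades ubiquitin-tagged proteins. Its 20S core is a barrel of stacked rings of alpha subunits, which gate the entrance, and beta subunits, of which psmb5, psmb6 and psmb7 encode those that cut peptide bonds. The 19S cap (psmc ATPases of the base and psmd subunits of base and lid) binds, deubiquitinates, unfolds and feeds substrates, and other caps (psme activators) or an inhibitor (psmf1) can bind the core ends in its place. In mammals, cells that fall short of proteasome activity raise most subunit genes together through the transcription factor NRF1 (nfe2l1), and immune cells exchange the catalytic subunits for immunoproteasome forms.

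Libraries held 26631852 to 41093922 counts in TP (median 34554464) and 19679120 to 75490916 in control (median 31374554). Levels are given as CPM, counts scaled to a library total of 1e+06. These totals alone scaled the edgeR quasi-likelihood fit, and a gene was called at an adjusted p no higher than 0.01, with Benjamini-Hochberg adjustment over the 24462 genes tested. On this scale all genes had a median log2 fold change of -0.35, and with TMM factors, which centre most genes on no change, it was -0.00107. A fold change near -0.35 is therefore that of the typical gene, and each member called lower is given on both scales. Both scales are relative to the other counts of a library, and the paper's methods name no spike-in for sequencing. Neither scale measures the amount of RNA per larva, so higher and lower are meant relative to other genes. An unlabelled difference also ran through the libraries, and it parted control libraries 1 to 4 from 5 to 8. The gene si:dkey-153m14.1 took under 2% of counts in 2 TP and 4 control libraries, and 2% or more in 6 TP and 4 control libraries. Its share was 0.548 to 0.923% in control libraries 1 to 4 and 3.38 to 6.42% in control libraries 5 to 8. TP libraries had no such gap at the cut. They ran from 0.900 to 4.06%, with TP libraries 1 and 2 at 2.18 and 2.16%.

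With library totals no proteasome gene rose in TP larvae, and 31 of the 54 members with enough counts to test fell, against 3 higher and 8 lower with TMM factors. Over all genes 41.9% were called lower and 4.59% higher. Of the members 23 passed in neither direction, 53 of the 54 fold changes were negative, and the median was -0.33, or 0.02 above that of all genes. By edgeR 1 member was higher at an unadjusted p under 0.05, and limma called none higher. With TMM factors the 8 lower and 3 higher members stood against 16.5% and 15.9% of all genes, and 28 of the negative fold changes turned positive. DESeq2 called 9 lower and 3 higher, and the shares of all genes it called were not counted. The 8 members lower with TMM factors were all among the 31. They were psmf1, psmd5, psme4a, psmg1, psmc1a, psmc5, psmc1b and psmd12. Every TP library lay below every control library for 20 of the 54 members, against 20.9% of all genes, and for none did every TP library lie above, against 1.9% of all genes. The summed level of all 58 members was 1042 ± 45.7 CPM in TP and 1398 ± 104 CPM in control larvae (SD, n = 8 each), a log2 ratio of -0.42 on the scale of library totals. The ranges of this sum did not overlap, with 979 to 1121 CPM in TP and 1284 to 1550 CPM in control libraries. The sum is weighted towards members with many counts. psme4a alone held 65.3 ± 19.4 CPM in TP and 138 ± 26.6 CPM in control, and a sum without it was not made.

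**Figure D1:**
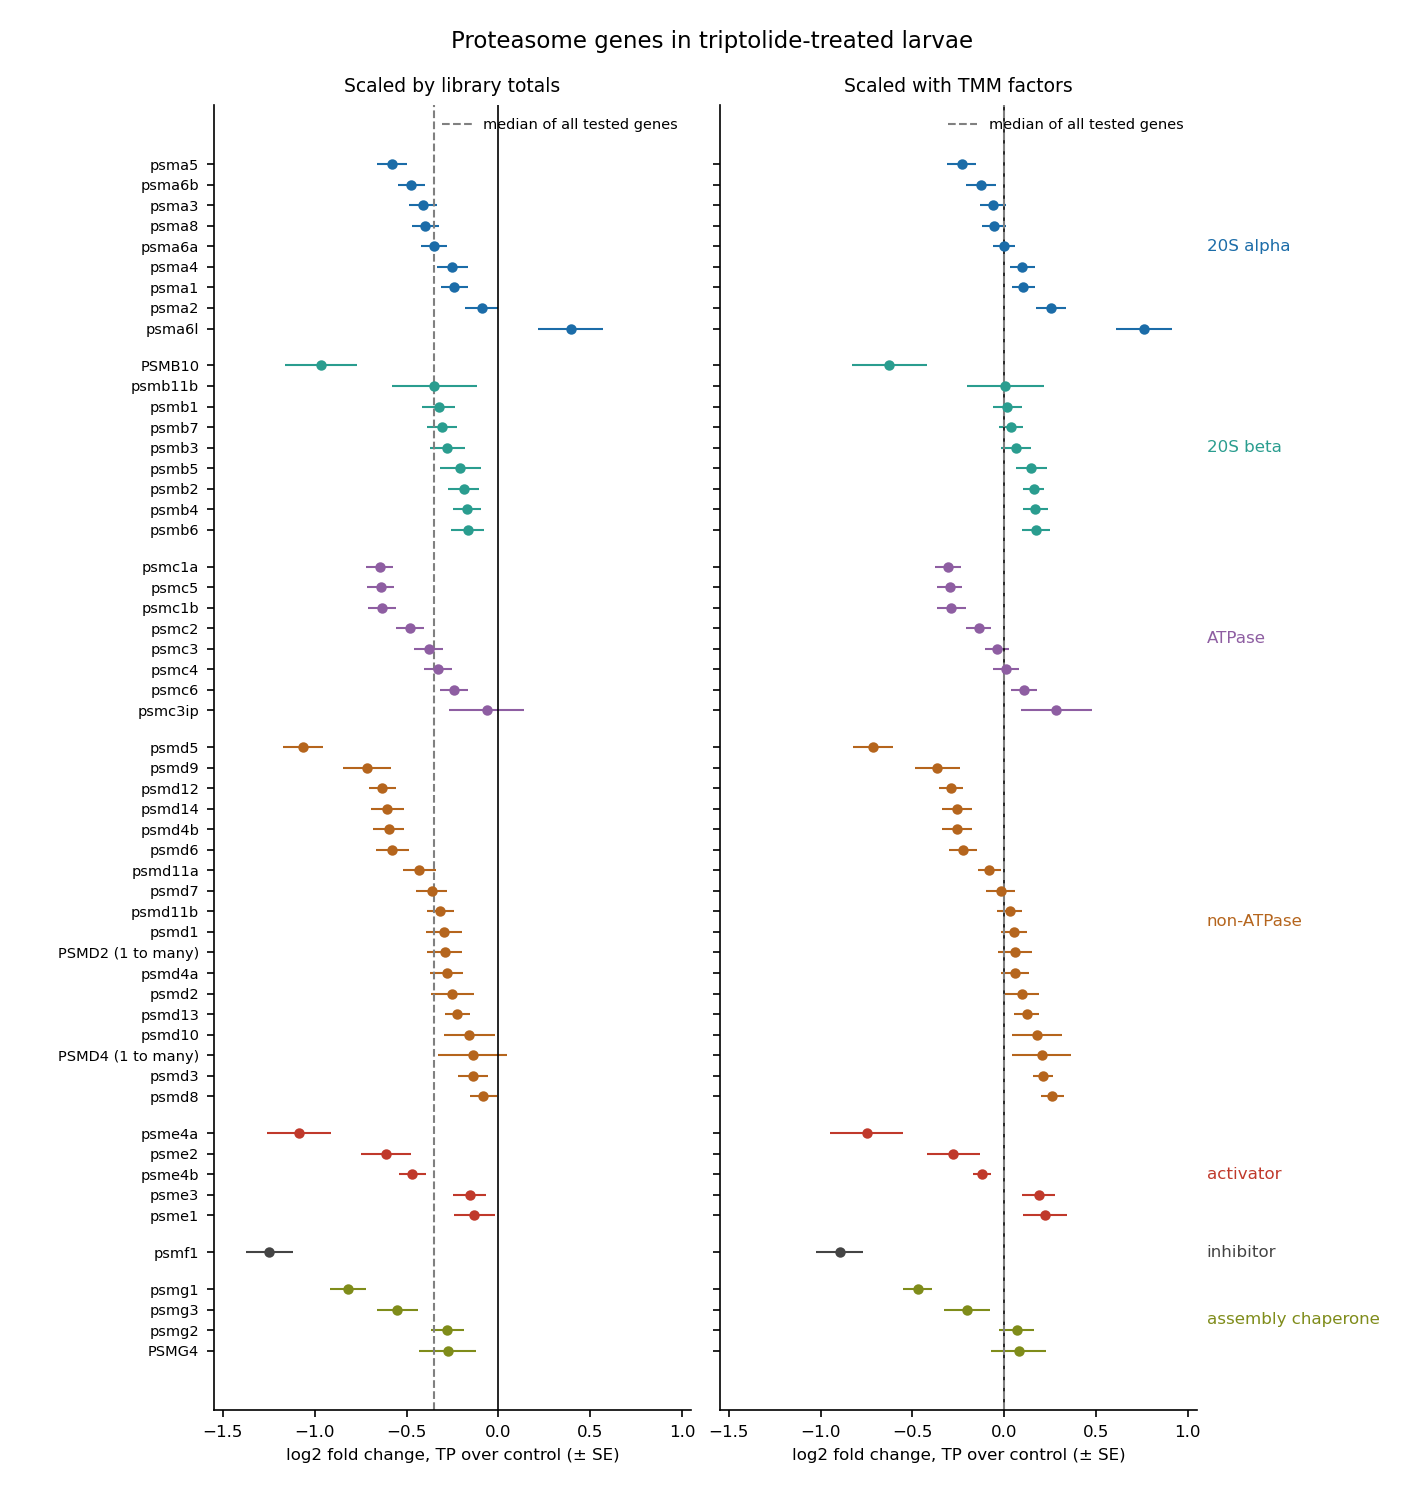
Log2 fold change of the 54 tested proteasome genes, TP over control, with its standard error, by class and scaled by library totals (left) or with TMM factors (right). The dashed line is the median of all tested genes, at -0.35 on the left and -0.00107 on the right. With library totals 24 members lie left of the line, and 28 members left of 0 lie right of 0 with TMM factors. psmf1, psmd5 and psme4a are among the members that stand left of the line in both panels.

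The classes are given on the log2 scale with library totals. Beside them, 41.9% of all genes were lower on this scale and 16.5% with TMM factors. The median log2 fold change was -0.35 over the 9 alpha genes, of which 6 fell. It was -0.28 over the 9 tested beta genes, of which 3 fell. The psmc genes had a median of -0.43 with 6 of 8 lower, and the psmd genes one of -0.31 with 10 of 18 lower. Of the activators 3 of 5 fell (median -0.47), and of the psmg chaperones 2 of 4 (median -0.41). With TMM factors no alpha or beta gene was called lower, 3 psmc, 2 psmd, 1 psme, 1 psmf and 1 psmg gene were, and the class medians ran from -0.12 in the psme genes to 0.07 in the beta genes beside psmf1 alone at -0.90. These are descriptions of the classes, whose differences were not tested.

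The alpha ring was led by psma8, which in zebrafish takes the place of the fourth alpha subunit. It had the highest level of its class, at 32.7 to 42.3 CPM in TP libraries (median 38.2) and 44.3 to 61.5 CPM in control libraries (median 50.2). The groups did not overlap, and the log2 fold change was -0.40 (SE 0.07, adjusted p = 1.1e-04 by edgeR). psma5, a structural alpha subunit, fell furthest in the ring. It had 19.5 to 23.1 CPM in TP (median 21.9) and 27.7 to 40.8 CPM in control libraries (median 32.2), a log2 fold change of -0.58 (SE 0.08, adjusted p = 4.7e-06). With TMM factors neither gene was called (-0.06 and -0.23, adjusted p = 0.49 and 0.019). psma3, psma6a and psma6b also fell, with log2 fold changes of -0.41, -0.35 and -0.47. With TMM factors they were at -0.06, -0.0021 and -0.13 and did not pass (adjusted p = 0.49, 0.98 and 0.22), and psma6a was at 0.0011 by DESeq2. psma1 passed narrowly at -0.24 (adjusted p = 0.0081) and missed when any 1 of TP libraries 1, 4, 5, 6, 7 and 8 or control libraries 2, 3 and 4 was left out (-0.24 to -0.20), and was at 0.10 with TMM factors. psma2 and psma4 were at -0.09 and -0.25 and did not pass.

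psma6l, an additional psma6-like gene, was the 1 member with a positive fold change. It had 1.51 to 2.12 CPM in TP (median 1.73) and 0.807 to 1.91 CPM in control libraries (median 1.19), so the groups overlapped. Its log2 fold change of 0.39 (SE 0.18, adjusted p = 0.059) did not pass by edgeR with library totals, and was 0.76 with TMM factors (adjusted p = 4.1e-04) and 0.76 by DESeq2 (adjusted p = 7.2e-05). The other psma6 genes stood far above it, psma6a at 10.7 ± 0.619 CPM in TP and 13.6 ± 1.14 CPM in control, and psma6b at 11.8 ± 0.707 CPM in TP and 16.4 ± 1.61 CPM in control (SD, n = 8 each). A second gene for the alpha2 place, si:rp71-45k5.4, whose current symbol is PSMA2, lay outside the naming rule at 16.9 ± 1.48 CPM in TP and 19.96 ± 2.61 CPM in control (log2 fold change -0.24, adjusted p = 0.019). The other such gene, fam192a (PSME3IP1), binds an activator and is no subunit (-0.22, adjusted p = 0.023).

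The constitutive beta genes, psmb1 to psmb7, lay close together between -0.33 and -0.17, all above the all-gene median of -0.35. Of these 7 genes 2 fell, against 41.9% of all genes. Among the catalytic subunits, psmb5 encodes the chymotrypsin-like site, the one that proteasome inhibitor drugs bind. It had 19.2 to 30.7 CPM in TP (median 22.8) and 21.9 to 36.8 CPM in control libraries (median 26.3), which overlapped widely (log2 fold change -0.21, SE 0.11, adjusted p = 0.11). psmb6, the caspase-like site, had 19.2 to 29.3 CPM in TP (median 25.5) and 23.9 to 32.5 CPM in control (median 28.4), with a log2 fold change of -0.17 (SE 0.09, adjusted p = 0.11). psmb7, the trypsin-like site, fell by 0.31 on the log2 scale (SE 0.08, adjusted p = 0.0028). It had 26.2 to 33.0 CPM in TP (median 28.8) and 29.2 to 41.4 CPM in control libraries (median 37.7), and the groups overlapped. With TMM factors all 3 were above 0, at 0.15, 0.18 and 0.04 for psmb5, psmb6 and psmb7, and none passed (adjusted p = 0.16, 0.068 and 0.66).

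Of the structural beta genes, psmb1 fell by 0.33 (adjusted p = 0.0043), a call that missed 0.01 without TP library 1 or 6 or control library 2 or 4 (-0.31 to -0.29, adjusted p of 0.010 to 0.012) and turned to 0.02 with TMM factors. psmb2 had the highest level of the beta genes, at 43.6 ± 3.99 CPM in TP and 49.7 ± 6.47 CPM in control (SD, n = 8 each), and did not pass (-0.19, adjusted p = 0.057). psmb3 and psmb4 were at -0.28 and -0.17 and did not pass either. psmb11b, a paralog of the thymus-specific psmb11 of mammals, was low at 1.36 ± 0.377 CPM in TP and 1.72 ± 0.590 CPM in control, and did not pass (-0.35, SE 0.23, adjusted p = 0.20).

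PSMB10, a gene on chromosome 4 from 75630955 to 75639856 (GRCz10) that the deposited table names after the trypsin-like immunoproteasome subunit, was the beta gene that fell furthest. Its identity was not checked by sequence. It had 0.492 to 1.52 CPM in TP (median 1.01) and 1.73 to 2.33 CPM in control libraries (median 1.87), so no TP library reached the lowest control library. Its log2 fold change was -0.96 (SE 0.20, adjusted p = 3.1e-04), and -0.63 with TMM factors, where it missed (adjusted p = 0.016). Immune cell markers were counted beside it. Of 22 tested markers 14 were lower and none higher with library totals, where 41.9% of all genes were lower, with a median log2 fold change of -0.64. With TMM factors 6 were lower and none higher, against 16.5% of all genes lower, with a median of -0.30. The summed level of all 29 markers matched was 124 to 151 CPM in TP and 173 to 218 CPM in control libraries. Its largest part was csf1rb, at 46.8 ± 8.80 CPM in TP and 51.45 ± 10.1 CPM in control (SD, n = 8 each). csf1ra averaged 17.8 CPM in TP and 26.1 CPM in control. Whether these markers are specific to immune cells in whole larvae was not tested. None of the markers was at 0 in either group. The 7 left out by the filter were low and went both ways. ccr7 averaged 0.286 CPM in TP and 0.0652 CPM in control, and cd8a 0.240 and 0.0810 CPM. cd4-1 averaged 0.109 CPM in TP and 0.480 CPM in control. DESeq2 called 7 markers lower and 2 higher, and limma 15 lower and 1 higher. Shares of all genes were not counted for these 2 tools. Among the 14 called, rag1, of lymphocyte receptor rearrangement, fell furthest (-1.99, adjusted p = 2.8e-08) and mpx, of neutrophils, least (-0.39, adjusted p = 0.0043). The other 8 tested markers did not pass, and of these ptprc lay nearest 0 (-0.05, adjusted p = 0.74). With TMM factors rag1 was at -1.65 (adjusted p = 8.6e-07) and mpx at -0.03 (adjusted p = 0.83). In whole larvae fewer cells of a type and less RNA per cell cannot be told apart, and the part of immune cells in the PSMB10 values was not tested.

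The members named psmb8a, psmb9a, psmb10 and psmb12, of which the first 3 carry names of mammalian immunoproteasome subunits, were near or at 0 in both groups. They lie together in the major histocompatibility region of chromosome 19 between 7186913 and 7225660 (GRCz10), where the gene models of psmb8a and psmb10 span those of psmb12 and psmb9a. psmb10, whose current symbol is psmb13a, had 0 counts in all 16 libraries. psmb8a had 2 counts in a single TP library and none in control, and psmb12 none in TP and 2 counts in a single control library. psmb9a had 6 counts over 2 TP libraries and 12 counts over 4 control libraries. Counts in the table were all even, so that 2 counts were taken as the mates of 1 read pair. A sum of 0 allows a level of up to 0.0214 CPM over the TP group and 0.0213 CPM over the control group (3 read pairs, counting error only). None of the 4 passed the filter, and no difference was detectable at this depth. By the paper's methods only reads that aligned end to end to the reference transcripts were counted. Loss of reads of these genes in alignment was not tested.

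Low counts were not limited to proteasome genes at this place. mhc1uka and mhc1uba, class I genes just before psmb8a, averaged 0.145 ± 0.155 and 0.103 ± 0.108 CPM in TP and 0.0784 ± 0.0637 and 0.0750 ± 0.0398 CPM in control. abcb3l1 (tap2a), a peptide transporter gene just after psmb9a, averaged 0.101 ± 0.0983 CPM in TP and 0.170 ± 0.157 CPM in control. The tapasin genes tapbp.1 and tapbp.2, whose gene models span that of mhc1uka, averaged 1.58 ± 0.457 and 2.46 ± 0.593 CPM in TP and 3.10 ± 0.530 and 3.88 ± 0.590 CPM in control. Past abcb3l1, brd2a averaged 67.6 ± 7.11 CPM in TP and 57.2 ± 6.70 CPM in control. Further on, si:busm1-12f11.2 was again low, at 0.154 ± 0.0543 CPM in TP and 0.268 ± 0.1435 CPM in control (SD, n = 8 each throughout).

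**Figure D2:**
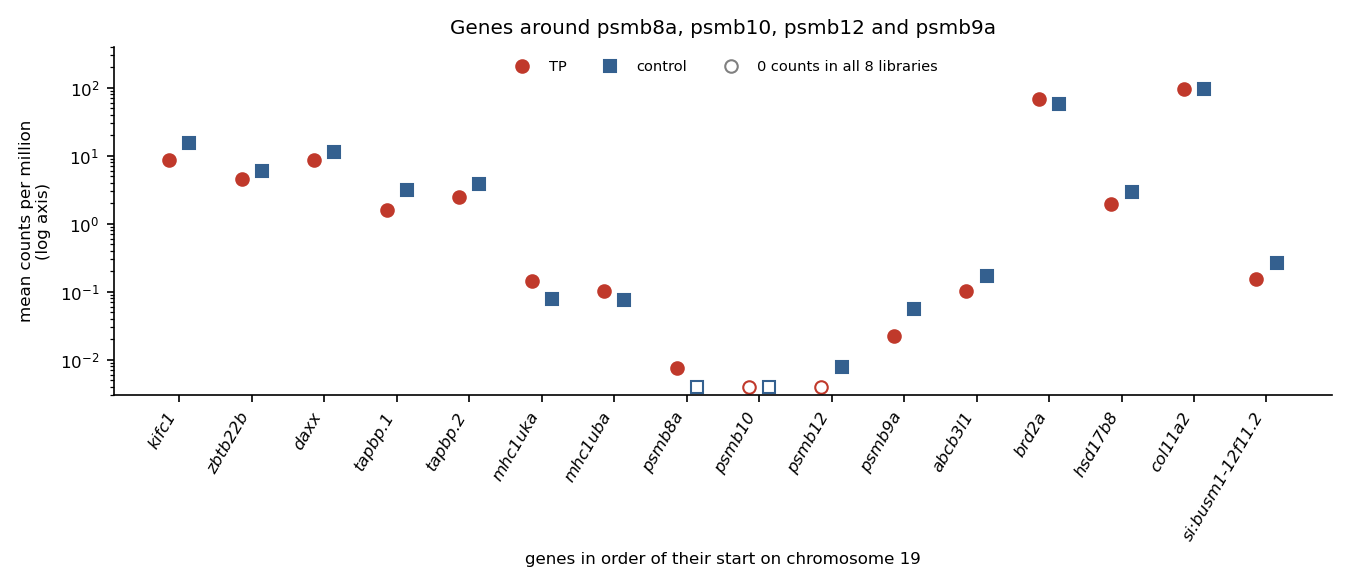
Mean CPM (log axis) of 16 neighbouring genes in their order on chromosome 19, TP (circles) and control (squares), with open symbols for 0 counts in all 8 libraries of a group. The 4 proteasome genes lie below 0.1 CPM, mhc1uka, mhc1uba and abcb3l1 below 0.2 CPM, and brd2a at 67.6 CPM in TP and 57.2 CPM in control.

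The ATPase genes fell in 6 of 7 cases when psmc3ip is set aside, against 41.9% of all genes. Among those lower on both scales were psmc1a, psmc1b and psmc5. psmc1a and psmc1b are copies of the gene for Rpt2, an ATPase that helps to open the gate of the core. psmc1a had 18.99 to 24.0 CPM in TP (median 20.4) and 30.0 to 37.9 CPM in control libraries (median 31.7), with a log2 fold change of -0.65 (SE 0.08, adjusted p = 5.6e-07). psmc1b had 8.95 to 11.9 CPM in TP (median 11.1) and 14.6 to 19.01 CPM in control libraries (median 17.0), with a log2 fold change of -0.63 (SE 0.07, adjusted p = 6.5e-07). Neither gene's groups overlapped. psmc5, for Rpt6, had 25.8 to 34.7 CPM in TP (median 28.6) and 38.6 to 51.6 CPM in control libraries (median 44.3), again apart (-0.64, SE 0.07, adjusted p = 4.6e-07). With TMM factors the 3 were at -0.31, -0.29 and -0.30 (adjusted p = 0.0016, 0.0057 and 0.0013). In the libraries with si:dkey-153m14.1 under 2% of counts, psmc1a was at -0.70 and missed (adjusted p = 0.013).

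psmc2, psmc3 and psmc4 also fell, at -0.48, -0.38 and -0.33, and lost their calls with TMM factors (-0.14, -0.04 and 0.01). psmc4 had the highest level of the class, 42.2 ± 4.82 CPM in TP and 53.1 ± 4.23 CPM in control (SD, n = 8 each). psmc6, for Rpt4, was at -0.24 and did not pass (adjusted p = 0.012). psmc3ip, the recombination factor, was at 1.42 ± 0.424 CPM in TP and 1.47 ± 0.388 CPM in control (-0.06, adjusted p = 0.80).

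Among the psmd genes the furthest fall was that of psmd5, on chromosome 21 from 5203565 to 5228560 (GRCz10). In yeast and mammals its product is a chaperone that holds ATPases of the base during assembly and is absent from the finished proteasome. It had 3.39 to 6.04 CPM in TP (median 4.53) and 8.59 to 11.5 CPM in control libraries (median 9.91), and the groups did not overlap. The log2 fold change was -1.06 (SE 0.11, adjusted p = 1.1e-07), and -0.72 with TMM factors (adjusted p = 1.5e-05). The other base chaperones had fold changes nearer 0, a difference that was not tested. psmd9 had 3.38 to 6.00 CPM in TP (median 4.59) and 5.89 to 9.46 CPM in control libraries (median 7.32), which overlapped at their edge (-0.72, SE 0.13, adjusted p = 9.6e-05). psmd10 was at -0.16 and did not pass (adjusted p = 0.35). With TMM factors psmd9 was at -0.36 and missed (adjusted p = 0.019).

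In the lid, which carries the deubiquitinase, 7 of 9 genes fell, against 41.9% of all genes. The median log2 fold change of the lid genes was -0.36, close to the -0.35 of all genes. With TMM factors 1 lid gene was lower and 2 were higher, against 16.5% and 15.9% of all genes. psmd12, for the scaffold subunit Rpn5, had 25.1 to 33.1 CPM in TP (median 28.9) and 38.1 to 51.4 CPM in control libraries (median 44.8), which did not overlap (-0.63, SE 0.08, adjusted p = 7.4e-07). It also fell with TMM factors (-0.29, adjusted p = 0.0012). psmd14, for the deubiquitinase Rpn11, had 13.5 to 18.3 CPM in TP (median 14.01) and 19 to 26.8 CPM in control libraries (median 21.1), with a log2 fold change of -0.61 (SE 0.09, adjusted p = 1.1e-05). With TMM factors it was at -0.26 and just missed (adjusted p = 0.012), while DESeq2 called it (adjusted p = 0.0095). psmd6, psmd11a, psmd7, psmd11b and psmd13 fell by 0.58, 0.43, 0.36, 0.32 and 0.22. With TMM factors they were at -0.23, -0.08, -0.02, 0.03 and 0.12 in the same order, and none passed (adjusted p = 0.020, 0.31, 0.85, 0.74 and 0.15). The call of psmd13 was the least firm, since leaving out any 1 of TP libraries 1, 3, 4, 5, 6 and 8 or control libraries 1, 3, 4, 7 and 8 ended it (-0.23 to -0.20).

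At the other end of the class, psmd8 (Rpn12) and psmd3 (Rpn3) of the lid were at -0.08 and -0.14 with library totals and did not pass (adjusted p = 0.35 and 0.15). With TMM factors they were the 2 members besides psma6l called higher, at 0.26 and 0.21 (adjusted p = 0.0023 and 0.0033). psmd8 had 23.9 to 31.7 CPM in TP (median 27.5) and 26.2 to 34.1 CPM in control libraries (median 29.1), so its groups overlapped on the scale of library totals. psmd3 had 22.9 to 29.3 CPM in TP (median 26.6) and 24.2 to 33.8 CPM in control libraries (median 29.1). Their direction thus depends on the scaling.

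The remaining psmd genes belong to the base. psmd1, for the large scaffold Rpn2, had the highest level of the class, at 39.8 ± 5.11 CPM in TP and 48.8 ± 7.85 CPM in control (SD, n = 8 each), and did not pass (-0.29, adjusted p = 0.013). psmd2, for the ubiquitin-binding scaffold Rpn1, and its second entry, both on unplaced scaffolds, were at -0.25 and -0.29 (adjusted p = 0.069 and 0.013). The copies of the gene for Rpn10, a ubiquitin receptor, differed. psmd4b fell by 0.60 (adjusted p = 6.2e-06), and psmd4a was at -0.28 and just missed (adjusted p = 0.010). With TMM factors they were at -0.26 and 0.06, and neither passed (adjusted p = 0.015 and 0.55). The entry PSMD4 (1 to many), which overlaps psmd4a on chromosome 19 and may share its reads, was at -0.14 (adjusted p = 0.54).

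The activators held the member with the highest CPM of all, psme4a, one of the copies of the gene for PA200. This very large cap opens the core without ATP and is known in mammals for histone degradation in spermatids and in DNA repair. CPM is not scaled by length, and the psme4a transcripts are 6907 and 6984 bases long. Scaled by length as described below, psme4a stood at 11.3 ± 3.52 in TP and 25.0 ± 3.70 in control, below psmb2 at 61.9 and 75.6. In CPM, psme4a had 67.7, 34.3, 35.1, 74.6, 81.2, 80.9, 70.3 and 78.0 in TP libraries 1 to 8, and 91.4, 139, 132, 127, 174, 128, 172 and 144 in control libraries 1 to 8. TP libraries 2 and 3 stood well below the other TP libraries, and all 8 TP libraries lay below the lowest control library. The log2 fold change was -1.08 (SE 0.17, adjusted p = 2.7e-05), and -0.75 with TMM factors (adjusted p = 0.0042). Without TP libraries 2 and 3, an alternative chosen after seeing the data, it was -0.87 (adjusted p = 5e-06). In the libraries with si:dkey-153m14.1 under 2% it was -1.16 and missed (adjusted p = 0.019), and in those at 2% or more it was -1.17 (adjusted p = 7.2e-05).

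Its copy psme4b had 45.6 to 56.3 CPM in TP (median 52.5) and 65.6 to 85.5 CPM in control libraries (median 67.0), which did not overlap (-0.47, SE 0.07, adjusted p = 1.8e-05). With TMM factors it was at -0.12 (adjusted p = 0.052). psme2, which with psme1 forms the PA28 ring known for its role beside the immunoproteasome, fell by 0.61 (SE 0.14, adjusted p = 7.0e-04). It had 2.55 to 3.98 CPM in TP (median 3.53) and 4.07 to 7.32 CPM in control libraries (median 5.00). psme1 had 3.70 to 5.18 CPM in TP (median 4.38) and 3.63 to 6.08 CPM in control (median 4.85) and did not pass (-0.13, adjusted p = 0.33). psme3, for the nuclear PA28 gamma ring, had 10.9 to 14.6 CPM in TP (median 12.1) and 10.4 to 16.2 CPM in control (median 13.3) and did not pass (-0.16, adjusted p = 0.15). With TMM factors psme2 was at -0.28, psme1 at 0.22 and psme3 at 0.19, and none passed. Over the 5 genes the summed level was 137 ± 16.5 CPM in TP and 233 ± 20.9 CPM in control, of which psme4a made the greater part in control.

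psmf1, on chromosome 6 from 51796297 to 51811096 (GRCz10), fell furthest of all members. It encodes PI31, named as an inhibitor of the core in vitro and known in flies and mammals as an adaptor for the transport and assembly of proteasomes. It had 1.37 to 2.03 CPM in TP (median 1.61) and 3.10 to 4.74 CPM in control libraries (median 4.12), which did not overlap. The log2 fold change was -1.25 (SE 0.13, adjusted p = 1.1e-07), and -0.90 with TMM factors (adjusted p = 9.7e-06). Leaving out each library in turn gave -1.29 to -1.21. Among all genes its fold change lay at the 4.34th percentile, and those of psme4a, psmd5, PSMB10 and psmg1 at 7.15, 7.60, 10.1 and 15.5.

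The psmg genes encode chaperones that build the alpha ring in pairs. psmg1 had 3.901 to 5.59 CPM in TP (median 5.03) and 7.62 to 10.4 CPM in control libraries (median 8.38), which did not overlap (-0.82, SE 0.10, adjusted p = 6.1e-07). It also fell with TMM factors (-0.47, adjusted p = 4.9e-05). Its partner psmg2 had 8.37 to 12.3 CPM in TP (median 10.1) and 10.9 to 14.8 CPM in control libraries (median 11.7) and did not pass (-0.28, adjusted p = 0.012). psmg3 fell by 0.55 (adjusted p = 3.7e-04), with 6.46 to 11.3 CPM in TP (median 7.63) and 9.49 to 13.7 CPM in control libraries (median 11.7). Its partner PSMG4 had 2.44 to 4.43 CPM in TP (median 3.005) and 2.52 to 4.84 CPM in control (median 3.77) and did not pass (-0.28, adjusted p = 0.13). In each pair 1 gene was called and the other not, and the difference within pairs was not tested. With TMM factors psmg3 missed (-0.20, adjusted p = 0.20) and psmg2 and PSMG4 were above 0. The 7 assembly chaperone genes together, the psmg genes with psmd5, psmd9 and psmd10, had a median log2 fold change of -0.55 with 4 lower. With TMM factors their median was -0.20 with 2 lower. Among all genes 41.9% were lower with library totals and 16.5% with TMM factors.

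**Figure D3:**
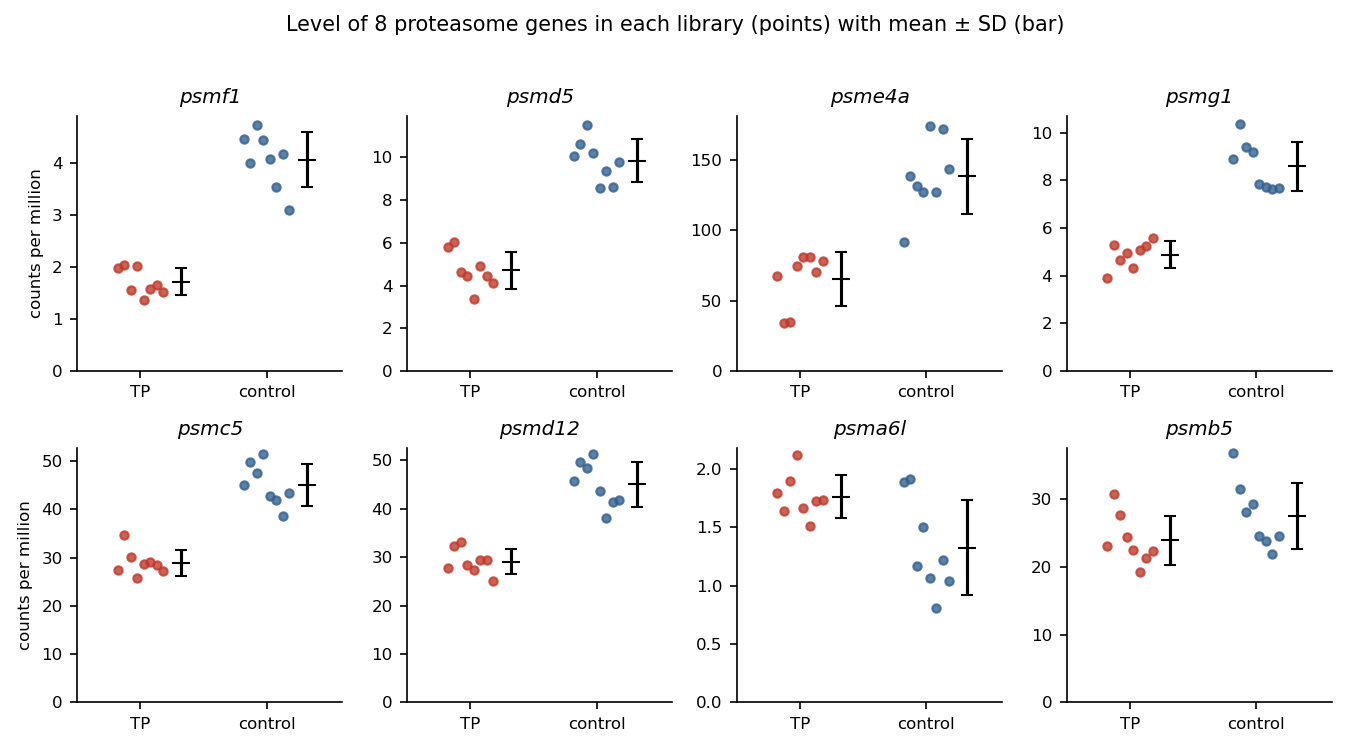
CPM of 8 proteasome genes in each TP (left) and control (right) library, with mean and SD. No TP library reaches the lowest control library for psmf1, psmd5, psme4a, psmg1, psmc5 and psmd12, while the groups overlap for psma6l and psmb5.

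Compared between genes, levels need scaling by length. Counts were divided by transcript length and scaled to a sum of 1e+06 in each library. Copies of a gene that fit the naming rule were summed for each place in the complex. The alpha2 place thus held psma2 alone, without si:rp71-45k5.4, which stood at 29.4 in control on this scale. In control larvae the 7 alpha places then held 31.8 to 60.9 (median 41.9) and the 7 beta places 27.1 to 75.6 (median 39.2) of these length-scaled units. The 6 ATPase places held 24.1 to 45.0 and the 11 psmd places 18 to 49.3 (median 26.7). In TP larvae the alpha places held 26.4 to 43.5 and the beta places 22.0 to 61.9. The psma6 genes together stood at 30.5 ± 3.86 in TP and 41.9 ± 6.64 in control. psmc1a and psmc1b together stood at 22.1 ± 3.23 in TP and 37.1 ± 4.61 in control (SD, n = 8 each). Among members, the order of places was headed in both groups by beta4 (psmb2), at 61.9 ± 7.73 in TP and 75.6 ± 16.4 in control. Next came alpha4 (psma8), at 43.5 ± 5.07 in TP and 60.9 ± 10.9 in control. An order with si:rp71-45k5.4 added to alpha2 was not made. The lowest was Rpn8 (psmd7), at 13.2 ± 1.201 in TP and 18 ± 3.45 in control. Many neighbours in this order lay within an SD of each other. The log2 ratio of mean CPM ran from -0.32 to -0.17 over the beta places, -0.58 to -0.09 over the alpha places, -0.64 to -0.24 over the ATPase places and -0.63 to -0.08 over the psmd places.

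**Figure D4:**
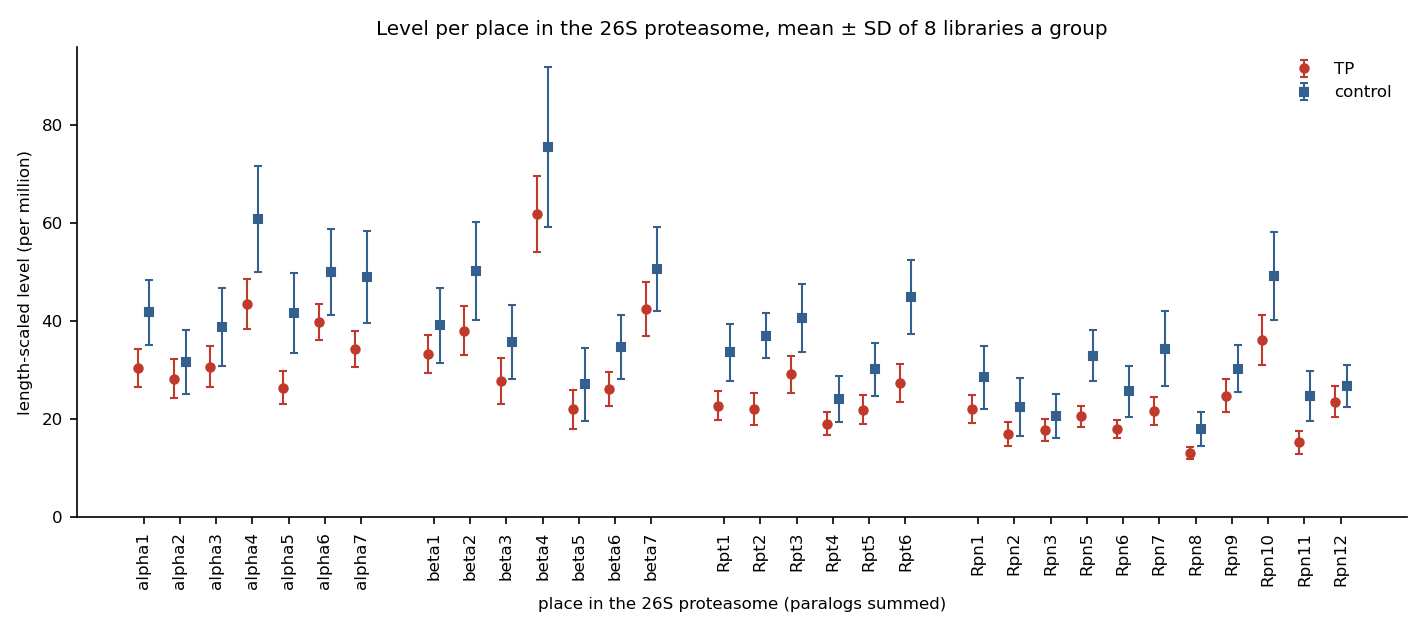
Length-scaled level (a library sums to 1e+06) for each place in the 26S proteasome, copies summed, in TP (circles) and control (squares), mean and SD of 8 libraries. The beta4 place (psmb2) stands highest in both groups, at 61.9 in TP and 75.6 in control, and Rpn8 (psmd7) lowest, at 13.2 in TP and 18 in control.

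Ratios of 2 genes within a library do not depend on how libraries are scaled. The log2 ratio of counts (0.5 added to each) was compared for the 5 pairs of duplicated members and for PSMB10 over psmb7, by 2-sided exact permutation of the 16 libraries with adjustment over the 6 ratios. The pairs were chosen after the fold changes were known, and the smallest p such a test can give is 1.6e-04. For the copies of the Rpn10 gene, the ratio psmd4a over psmd4b was -0.19 to 0.10 in TP libraries (median -0.05) and -0.55 to -0.21 in control libraries (median -0.34). Every TP library lay above every control library, and the means differed by 0.31 (SE 0.06, exact p = 1.6e-04, adjusted p = 9.3e-04). From only the most abundant transcript per gene the difference was 0.26 (adjusted p = 9.3e-04, exact permutation). psmd4b was thus lower in TP relative to its copy whatever the scaling, with the limit that PSMD4 (1 to many) may hold reads of psmd4a.

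PSMB10 over psmb7 was -5.86 to -4.42 in TP libraries (median -4.74) and -4.45 to -3.86 in control libraries (median -4.30), overlapping at the edge. The means differed by -0.73 (SE 0.21, exact p = 6.2e-04, adjusted p = 0.0019). psme4a over psme4b was -0.71 to 0.83 in TP libraries (median 0.51) and 0.10 to 1.40 in control libraries (median 0.93). Its difference of -0.67 (SE 0.26, exact p = 0.018, adjusted p = 0.036) rested on TP libraries 2 and 3, the lowest. Without both it was -0.35 (adjusted p = 0.13, exact permutation), and it also missed 0.05 without any 1 of TP libraries 2 and 3 and control libraries 2, 4, 5, 6, 7 and 8 (-0.68 to -0.53). The other pairs did not pass. psma6a over psma6b differed by 0.12 (SE 0.06, exact p = 0.076, adjusted p = 0.11), which became 0.15 without TP library 1 (adjusted p = 0.029, exact permutation). psmd11a over psmd11b differed by -0.11 (SE 0.08, exact p = 0.21, adjusted p = 0.25) and psmc1a over psmc1b by -0.02 (SE 0.07, exact p = 0.81, adjusted p = 0.81).

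**Figure D5:**
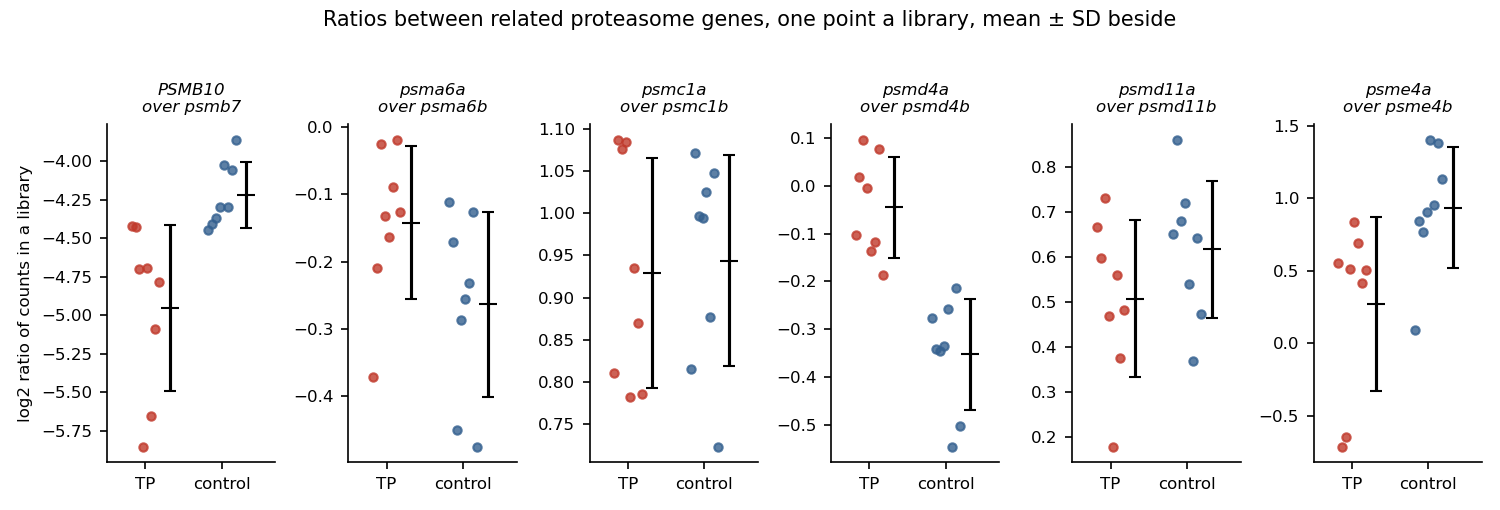
Log2 ratio of counts within a library for 6 pairs of related proteasome genes, a point for each TP (left) and control (right) library, with mean and SD; each panel has its own axis. psmd4a over psmd4b is apart between the groups (-0.19 to 0.10 in TP, -0.55 to -0.21 in control), and 2 TP libraries lie lowest for psme4a over psme4b.

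The transcripts of the members were fitted in the same way. Of 100 tested member transcripts 51 were lower (51.0%) and 0 higher by edgeR, against 36.7% lower and 3.48% higher among all transcripts, and 1 was higher at an unadjusted p under 0.05. With TMM factors 13 were lower and 3 higher, and DESeq2 called 4 higher. Shares over all transcripts were counted with library totals only, so these last counts cannot be set against all transcripts. Among 30 genes with at least 2 tested transcripts, the fold changes within a gene spanned a median of 0.12 on the log2 scale and differed in sign in 2 genes. The widest span, 0.53, was in psmc4, between its main transcript at 51.9 CPM in control (-0.32) and a short one at 1.16 CPM (-0.85). Both transcripts of psme4a were at -1.07 and -1.10, and both of psmf1 at -1.23 and -1.25. Isoforms share reads, so these values are not independent.

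Genes that act with the proteasome were set beside it on the same scale, on which 41.9% of all genes were lower and 4.59% higher by edgeR. With TMM factors 16.5% of all genes were lower and 15.9% higher. Of 21 partner genes (assembly factor, ubiquitin shuttles, deubiquitinases and unfolding machinery) 13 were lower and none higher by edgeR, with a median log2 fold change of -0.34 beside -0.35 for all genes. The 13 called ran from usp14, a deubiquitinase of the cap (-0.57, adjusted p = 4.9e-05), to ube3c, a ligase of the cap (-0.28, adjusted p = 0.0019). Among the partners that did not pass, faf1 was nearest 0 (-0.0032, adjusted p = 0.98). pomp, the chaperone for joining 20S precursors, fell by 0.50 (adjusted p = 2.3e-04). With TMM factors 2 partners were higher and 0 lower.

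Of 15 genes that regulate proteasome genes 6 were lower (against 41.9% of all genes), with a median log2 fold change of -0.26. nfe2l1a and nfe2l1b, the zebrafish NRF1 genes, did not pass (-0.20 and -0.26, adjusted p = 0.052 and 0.039). ddi2, the protease that activates NRF1, fell by 0.34 (adjusted p = 0.0079), near the all-gene median of -0.35. With TMM factors it was at 0.02 and did not pass (adjusted p = 0.87). The widest and least of the falls were those of mafgb, a small MAF partner (-0.93, adjusted p = 0.0013), and bach1b, a repressor at the same sites (-0.31, adjusted p = 4.5e-04). With TMM factors 1 regulator was higher and 0 lower, against 15.9% and 16.5% of all genes.

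Of the list of ubiquitin, E1 and NEDD8 genes, ubb, a polyubiquitin gene, fell by 0.83 on the log2 scale (adjusted p = 3.3e-09), and rps27a, which encodes ubiquitin fused to a ribosomal protein, rose by 0.27 (adjusted p = 0.0027). Both directions held with TMM factors (-0.50 and 0.61). In the whole list of 12, 8 were lower and 2 higher (median -0.46), and with TMM factors 3 lower and 3 higher. Among all genes 41.9% were lower and 4.59% higher with library totals (median -0.35). The shares of all genes with TMM factors were 16.5% lower and 15.9% higher.

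Of 22 tested genes of class I antigen processing 7 were lower and 2 higher (median -0.26), from tapbp.1 (-0.97, adjusted p = 9.0e-05) to b2m (0.71, adjusted p = 5.7e-04), with 3 lower and 5 higher by TMM factors. Among all genes 41.9% were lower and 4.59% higher, and with TMM factors 16.5% lower and 15.9% higher. Relatives of the 19S lid were counted in the same way. In the COP9 signalosome, which shares the lid's architecture, 7 of 8 genes were lower with library totals (median -0.48, beside 41.9% lower and -0.35 for all genes), from cops8 (-0.56, adjusted p = 2.6e-06) to cops2 (-0.23, adjusted p = 0.0061). In the translation factor eIF3 3 of 17 were lower and 4 higher (median 0.04), from eif3bb (-1.02, adjusted p = 0.0082) to eif3k (0.39, adjusted p = 1.3e-04). None of the 9 genes of the CCT chaperonin, another stacked ring, was called either way (median -0.07). All 9 were higher with TMM factors, against 15.9% of all genes. With TMM factors 13 eIF3 genes were higher and 1 lower, and no COP9 gene passed in either direction. Differences among these lists, and between them and the proteasome, were not tested. By edgeR at an unadjusted p under 0.05, no partner, regulator, COP9, CCT or immune gene was higher, and limma called 1 immune gene and no other of them higher. DESeq2 called 2 partners, 1 regulator, 9 CCT genes and 2 immune genes higher and no COP9 gene. Shares over all genes were not counted for DESeq2 or limma, so their counts cannot be set against all genes.

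With library totals 4.59% of all genes were higher and 41.9% lower, and with TMM factors 15.9% higher and 16.5% lower. Markers of the tissues in a whole larva were present. Of 16 tested 4 were higher and 1 lower, from fabp10a of liver (0.38, adjusted p = 8.0e-05) to rhol of photoreceptors (-0.71, adjusted p = 3.1e-05), and the median was 0.03 (10 higher and 1 lower with TMM factors). Of 7 tested germline markers 3 were higher and 0 lower (median 0.37; 5 higher with TMM factors). The 3 higher ranged from ddx4 (0.57, adjusted p = 0.0016) to gdf9, whose control level of 0.00809 CPM is too low for a fold (0.797 ± 0.260 CPM in TP, SD, n = 8). Nothing in the labels ties the 16 pools to parents or days. The p-values measure the spread between these pools.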

How the data were processed

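Counts were deposited by the authors per Ensembl transcript, raw and not normalized, for 16 libraries of whole zebrafish larvae, with transcript lengths and GRCz10 positions. By the paper's methods, stranded total RNA libraries were sequenced as paired 75-base reads and aligned with Bowtie2 to Ensembl release 84 transcripts, keeping concordant pairs. The submitters' processing notes also name FastQC, SAMtools and limma. Neither tool versions nor strand use in counting are given in the sources used here, and reads shared by copies, isoforms or overlapping genes may be split among them. All counts were even.

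Counts were summed by Ensembl gene ID and fitted with edgeR 4.0.16 in R 4.3.3 (quasi-likelihood, filterByExpr, library totals, 2 groups). Standard errors are the log2 fold change over the square root of F. The members and lists were chosen with earlier results of these data known. Genes named are the highest and lowest in fold change and the highest in CPM of each class, all catalytic, psme, psmf, psmg and untested members, and from each list the called genes with the highest and lowest fold change; others were named after their values were seen. The lists were proteasome partners, regulators, ubiquitin and E1 genes, class I antigen processing, COP9, eIF3, CCT, immune, whole larva and germline markers. Replicate pairs differed beyond sampling noise (chi-square per degree of freedom at least 4.07 on read pairs). Alternatives were TMM factors, DESeq2 1.42.0, limma 3.58.1 on scaled log2 counts (pseudocount 1), other totals and filters, halved counts, 1 transcript a gene, an adjusted p of 0.05, subsets of libraries and a replicate block. The fit was tested on simulated data.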

Additional observations from a re-analysis of the deposited data

Results flagged for a closer look

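Each of the 54 tested members was searched in both groups of 8 libraries for a library whose gap to the next exceeded Dixon's 95% critical value, and 6 of 108 groups held one, where chance gives about 1 in 20. In TP, library 2 was highest for psme3 (14.6 CPM) and psmd14 (18.3 CPM), library 4 lowest for psmc1b (8.95 CPM) and library 1 lowest for psmb11b (0.512 CPM). In control, library 1 was highest for psmd1 (65.6 CPM) and psmd11b (19.7 CPM). Leaving out the named library changed the call of none of these 6 genes.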

How the results depend on the processing

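The 31 lower and 0 higher genes became 8 and 3 with TMM factors and 9 and 3 by DESeq2, and the 51 lower and 0 higher transcripts became 13 and 3 with TMM factors and 15 and 4 by DESeq2. In the 6 libraries with si:dkey-153m14.1 under 2% of counts (2 TP and 4 control) 8 genes were lower. In the 10 others (6 TP and 4 control) 23 were lower, again by a test on fewer libraries. Shares of all genes called in these subsets were not counted, so 8 and 23 cannot be compared as a difference in the proteasome genes. The other settings, a looser adjusted p of 0.05 included, kept 23 to 38 genes lower and 0 higher, and leaving out each library in turn gave 28 to 36 genes and 43 to 58 transcripts lower and 0 higher.

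With TMM factors, and then by DESeq2, these log2 fold changes turned positive: PSMD2 (1 to many) 0.059 and 0.065, PSMD4 (1 to many) 0.20 and 0.21, PSMG4 0.078 and 0.084, psma1 0.10 and 0.11, psma2 0.25 and 0.26, psma4 0.10 and 0.10, psmb1 0.017 and 0.022, psmb11b 0.0052 and 0.011, psmb2 0.16 and 0.17, psmb3 0.066 and 0.070, psmb4 0.17 and 0.17, psmb5 0.15 and 0.15, psmb6 0.18 and 0.18, psmb7 0.038 and 0.043, psmc3ip 0.28 and 0.29, psmc4 0.011 and 0.017, psmc6 0.11 and 0.11, psmd1 0.054 and 0.060, psmd10 0.18 and 0.19, psmd11b 0.029 and 0.037, psmd13 0.12 and 0.13, psmd2 0.10 and 0.10, psmd3 0.21 and 0.22, psmd4a 0.059 and 0.065, psmd8 0.26 and 0.27, psme1 0.22 and 0.23, psme3 0.19 and 0.19, psmg2 0.068 and 0.074. By DESeq2 psma6a was at 0.0011. With totals without ribosomal and mitochondrial transcripts psma2 was at 0.014, psmc3ip at 0.045 and psmd8 at 0.023. In the libraries under 2% psmc3ip was at 0.11, and in those at 2% or more psma2 was at 0.061, psmd3 at 0.024 and PSMD4 (1 to many) at 0.019. Leaving out each library in turn gave -0.19 to 0.024 for psmc3ip.

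TP and control libraries with the same final digit in their titles did not deviate together (correlations of -0.17 to 0.28, over 0.1 in 4 of 8 pairs, and 3 of 8 TP libraries closest to their own number). A replicate block gave 32 lower and 0 higher genes and 52 lower transcripts. With it PSMB10 over psmb7 (-0.73) and psme4a over psme4b (-0.67) had an adjusted p of 0.062 each by exact sign flips. Without TP libraries 2 and 3, psme4a over psme4b differed by -0.35. Leaving out each library gave -0.81 to -0.61 for PSMB10 over psmb7, 0.092 to 0.15 for psma6a over psma6b, -0.047 to 0.0057 for psmc1a over psmc1b, 0.28 to 0.33 for psmd4a over psmd4b, -0.15 to -0.062 for psmd11a over psmd11b and -0.79 to -0.53 for psme4a over psme4b. The 3 planned ratios of psmb8a, psmb9a and psmb10 to psmb5, psmb6 and psmb7 were not run, since at most 12 counts in a group leave them set by the added constant, and the planned promoter search was not run. The library subsets and the 6 ratios were chosen after seeing the data.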
